A study of Homo sapiens with 12 samples.

Results

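The genes described here encode proteins of the spliceosome and of pre-mRNA binding complexes: the SR proteins (SRSF), the small nuclear ribonucleoprotein (snRNP) proteins (SNRP), the heterogeneous nuclear ribonucleoproteins (HNRNP), the U2 snRNP factors SF3A and SF3B, the pre-mRNA processing factors (PRPF) and the LSM proteins. Members were taken by gene symbol, as every symbol that begins with SRSF, SF3A, SF3B, PRPF or LSM and a digit, or with SNRP or HNRNP, in the annotation of the array. This gave 77 of the 19775 genes that had a probe set (a group of probes that reads 1 transcript region) of their own. There were 10 SRSF, 13 SNRP, 21 HNRNP, 9 SF3, 11 PRPF and 13 LSM genes. Of the 77 members 74 were bright enough to be tested, and the pseudogene HNRNPA3P1, SNRPN and SRSF12 lay below the filter, at a signal of 10.2. The names HNRNPD-DT and SNRPF-DT belong to long non-coding RNAs transcribed divergently from their namesake genes. A further 11 symbols, among them SRSF2 and SRSF9, occurred only on probe sets shared by several genes and were not analysed here.

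The 12 samples, each read on an Affymetrix U133 Plus 2.0 array, came from Ls174T, a human colorectal carcinoma line with active Wnt signalling, in derivatives that carry a doxycycline-inducible construct. In the shRNA line doxycycline had induced a short hairpin RNA against β-catenin, the coactivator of Wnt target genes, for 72 h (3 arrays), and 3 arrays came from the same line without doxycycline. In the other line doxycycline had induced dominant-negative Tcf4, which occupies Tcf sites on DNA but cannot bind β-catenin, for 24 h (3 arrays), with 3 arrays of that line left uninduced. The design asks which genes depend on Wnt signalling. All groups share the Ls174T background, the lines differ in construct and time, and there was no group of cells with doxycycline and no construct. A derivative of 1 cell line is a limited model, and the labels do not say whether the derivatives are single clones or whether the 3 arrays per group stem from separate cultures, which means that p-values measure the spread between arrays.

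Splicing removes introns from pre-mRNA. The U1 and U2 snRNPs recognise the ends of an intron, the tri-snRNP of U4, U6 and U5 joins them, and rearrangement of these particles forms the catalytic spliceosome. Sm proteins form the ring around most spliceosomal snRNAs, and LSM proteins form the matching ring on U6. SR proteins and hnRNPs bind exons and introns and shift which splice sites are used.

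The arrays carried the labelled cell type, and the induced shRNA lowered its target. TCF7L2, the gene of Tcf4, rose at its brightest probe set by 0.74 with the shRNA and by 0.72 with dominant-negative Tcf4. The shRNA line carries no Tcf4 construct, so this rise does not show that dominant-negative Tcf4 was expressed. Its expression was not checked here. CTNNB1, the gene of β-catenin, averaged 156 ± 21.4 after induction of the shRNA and 3784 ± 195 in the uninduced line (SD, n = 3 each), and all 12 markers of colorectal epithelium passed the filter. Their summed signal was 36725 to 41427.5 on induced and 17024 to 19763.7 on uninduced arrays of the shRNA line, and 37144.4 to 42055.4 on induced and 25403.6 to 28626 on uninduced arrays of the dominant-negative Tcf4 line. Of the 17 listed markers of leukocytes, fibroblasts, endothelium and neurons on the array 6 passed the filter, their sums lay between 29.6 and 170.7 on all arrays, and PTPRC, which defines leukocytes, reached at most 10.7. MYC, a transcription factor and Wnt target known to promote the expression of many splicing genes, changed by -0.99 on the log2 scale in both inductions. Its signals were 1112.1, 1099.1 and 1156.4 with the shRNA against 2120.4, 2299.8 and 2275.6 without, and 972.3, 1034.2 and 833.0 with dominant-negative Tcf4 against 1941.6, 1753.1 and 1925.4 without. The part of the epithelial markers and of MYC in the results below was not tested.

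Promoters are printed for the member with the largest decrease shared by both inductions (SF3A3), for the only shared decrease with an E-box in its window (HNRNPUL1), for a pair of related neighbours (HNRNPD and HNRNPDL) and for the only member with a TCF core (SRSF8). Windows of 300 bases, 250 of them before the annotated start, were taken from RefSeq on GRCh38.p14, and 68 of the 77 members had one. Capitals mark the E-box CACGTG, which MYC and related factors bind, or the core CTTTGAT of the TCF motif, both searched on both strands. The windows are SF3A3 at chr1:37989973-37990272 (minus strand), HNRNPUL1 at chr19:41262307-41262606 (plus strand), HNRNPD at chr4:82373942-82374241 (minus strand), HNRNPDL at chr4:82430176-82430475 (minus strand) and SRSF8 at chr11:95066627-95066926 (plus strand).
SF3A3: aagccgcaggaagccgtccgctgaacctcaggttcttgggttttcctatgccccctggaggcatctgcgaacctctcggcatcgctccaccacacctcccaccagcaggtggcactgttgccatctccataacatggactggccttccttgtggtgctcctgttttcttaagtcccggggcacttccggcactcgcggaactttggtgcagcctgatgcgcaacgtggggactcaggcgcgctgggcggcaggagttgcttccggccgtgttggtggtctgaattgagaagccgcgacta
HNRNPUL1: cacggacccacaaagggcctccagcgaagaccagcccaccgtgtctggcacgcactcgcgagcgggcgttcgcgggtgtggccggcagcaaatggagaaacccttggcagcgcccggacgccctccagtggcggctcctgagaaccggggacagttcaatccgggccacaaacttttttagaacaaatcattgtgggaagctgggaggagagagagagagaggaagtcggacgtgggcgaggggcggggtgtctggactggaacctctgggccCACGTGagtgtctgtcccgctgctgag
HNRNPD: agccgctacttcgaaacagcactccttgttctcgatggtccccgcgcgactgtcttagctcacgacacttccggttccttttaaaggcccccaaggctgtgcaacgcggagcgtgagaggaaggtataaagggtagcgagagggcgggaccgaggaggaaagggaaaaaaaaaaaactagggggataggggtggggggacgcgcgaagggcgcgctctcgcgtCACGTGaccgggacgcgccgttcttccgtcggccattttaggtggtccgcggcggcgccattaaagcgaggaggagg
HNRNPDL: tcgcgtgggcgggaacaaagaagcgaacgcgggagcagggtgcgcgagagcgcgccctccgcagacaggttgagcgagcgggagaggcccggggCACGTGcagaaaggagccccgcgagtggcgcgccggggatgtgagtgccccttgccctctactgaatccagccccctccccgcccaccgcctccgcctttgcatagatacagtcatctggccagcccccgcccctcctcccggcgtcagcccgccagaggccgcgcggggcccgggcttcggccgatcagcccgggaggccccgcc
SRSF8: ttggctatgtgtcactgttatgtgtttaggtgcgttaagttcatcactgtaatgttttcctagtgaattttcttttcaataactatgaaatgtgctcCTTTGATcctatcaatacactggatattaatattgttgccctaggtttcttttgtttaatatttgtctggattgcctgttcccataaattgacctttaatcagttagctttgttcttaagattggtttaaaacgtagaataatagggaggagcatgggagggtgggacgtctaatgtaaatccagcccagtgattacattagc
An E-box lay in 7 of the 68 members' windows (10.3%), against 10.4% of the 10088 windows of genes tested on the arrays and 7.43% of all 27305 windows. It lay in 1 of the 23 windows of members that fell in both inductions (4.35%), against 6 of 43 other tested members (14.0%). The TCF core lay in 1 of 68 members' windows (1.47%), against 1.47% of the windows of tested genes and 2.64% of all windows. These are matches of letters, and nothing about binding was measured.

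After 72 h of the β-catenin shRNA splicing factor genes were lower throughout the families. Of the 74 tested members 42 fell and none rose at an adjusted p under 0.05, against 17.4% lower and 16.6% higher (34.0% either way) of the 12386 genes tested. The median log2 change was -0.36, against 0.02 over all tested genes, and 69 of 74 members had a negative change, against 5989 of 12386 genes. Most changes were modest: 15 of the 42 decreases were at least 1.5-fold and 3 at least 2-fold. Decreases were called for 7 of 9 tested SRSF genes, 7 of 12 SNRP, 10 of 20 HNRNP, 4 of 9 SF3, 6 of 11 PRPF and 8 of 13 LSM genes. The induced and uninduced signals did not overlap for 52 of 74 members, against 44.6% of all tested genes. Array totals are scaled by the authors to a common level, so all changes are relative to the other genes, and in bulk RNA fewer cells that express a gene and less RNA per cell cannot be told apart. When a change of more than 1.5-fold was required of the test itself, 2 decreases remained (SF3B3 and SF3B6). The mean of all probe sets of a gene, in place of the brightest, gave 31 decreases among 74 members.

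After 24 h of dominant-negative Tcf4 the count was the same, 42 of 74 lower, and 1 member, SRSF5, was higher, against 20.0% lower and 16.0% higher (36.0% either way) of all tested genes. The median log2 change was -0.32, against -0.05 over all tested genes, and 70 of 74 members had a negative change, against 6749 of 12386 genes. Only 7 of these 42 decreases were at least 1.5-fold, and none was 2-fold. Decreases were called for 5 of 9 SRSF, 8 of 12 SNRP, 11 of 20 HNRNP, 5 of 9 SF3, 5 of 11 PRPF and 8 of 13 LSM genes. Signals did not overlap for 47 of 74 members, against 47.1% of all tested genes. The mean of all probe sets of a gene gave 31 decreases among 74 members here too. With each array centred on its median 28 members fell and none rose, without probe sets ending in _x_at or _s_at, which may read more than 1 transcript or gene, 26 of 57 tested members fell, and when a change of more than 1.5-fold was required of the test no decrease was called. The 3′ to 5′ signal ratio of ACTB, a measure of RNA integrity, was 1.13 to 1.16 on induced arrays and 1.25 to 1.35 on uninduced arrays of this line, against 1.29 to 1.34 induced and 1.32 to 1.39 uninduced in the shRNA line, and its part in the result was not tested.

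**Figure D1:**
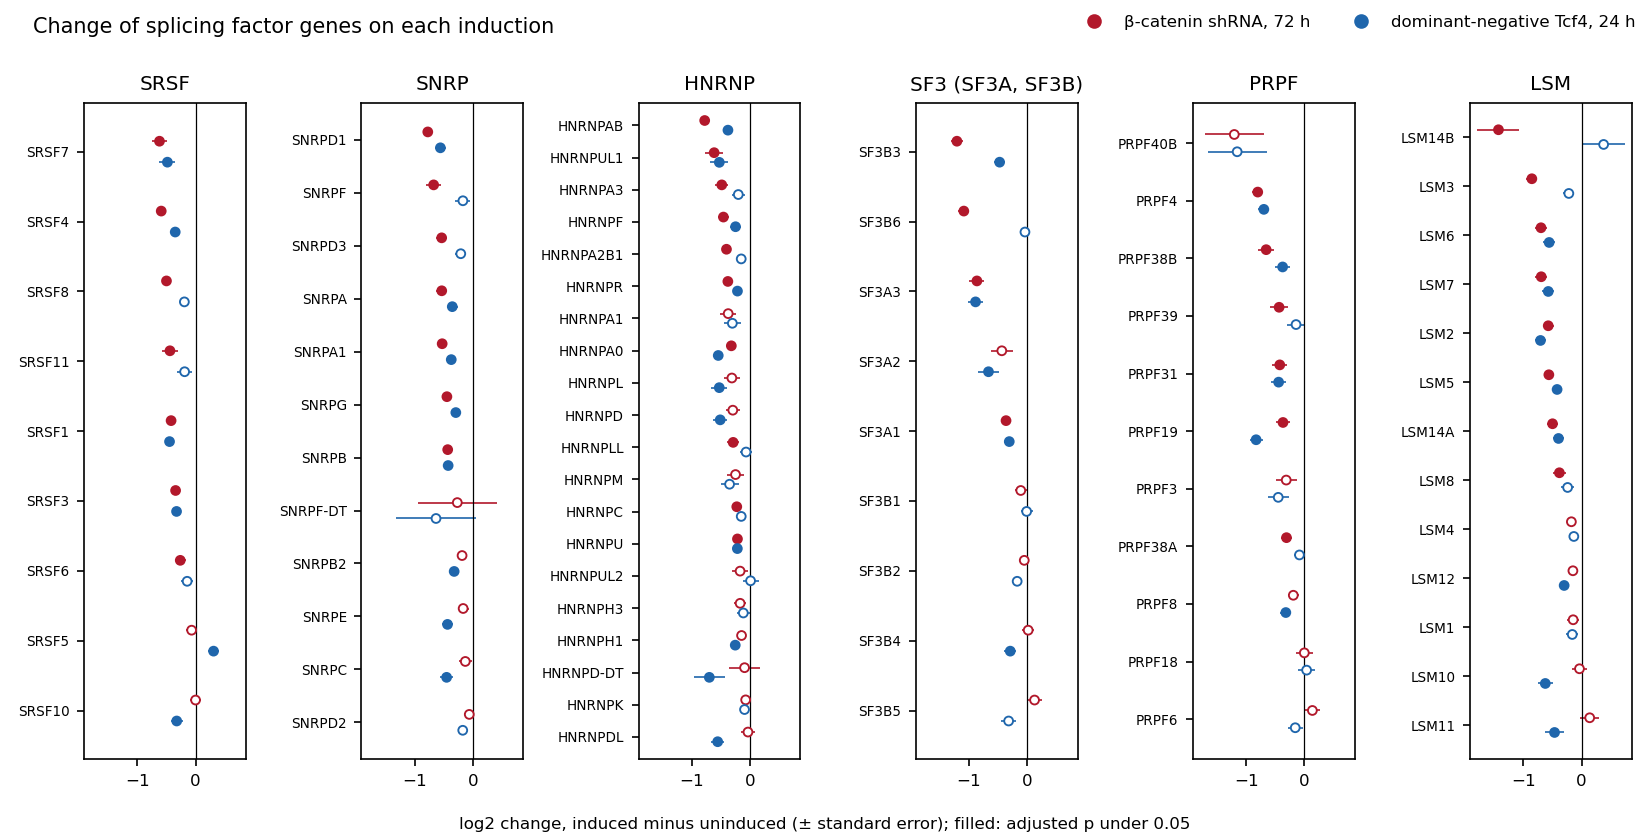
Log2 change of each of the 74 tested members, induced minus uninduced, on the x axis, with 1 row per gene in 6 panels by family (red: β-catenin shRNA at 72 h, blue: dominant-negative Tcf4 at 24 h). Bars are ± 1 standard error and filled points have an adjusted p under 0.05. Filled points lie left of 0 in every panel, with SRSF5 under dominant-negative Tcf4 as the exception.

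Both inductions lowered 27 members (36.5%), against 9.68% of all tested genes. None rose in both, against 8.40%, and none was called in opposite directions, against 1.55%. A further 15 members were called lower only under the shRNA and 15 only under dominant-negative Tcf4, and 16 were called in neither. The lines have separate uninduced arrays. The shared decreases were SRSF1, SRSF3, SRSF4 and SRSF7, SNRPA, SNRPA1, SNRPB, SNRPD1 and SNRPG, HNRNPA0, HNRNPAB, HNRNPF, HNRNPR, HNRNPU and HNRNPUL1, SF3A1, SF3A3 and SF3B3, PRPF4, PRPF19, PRPF31 and PRPF38B, and LSM2, LSM5, LSM6, LSM7 and LSM14A. Both calls of SNRPA, SNRPB, SNRPD1, HNRNPA0, HNRNPAB, SF3A3, PRPF4, LSM2, LSM6 and LSM7 were kept under every alternative setting except the 1.5-fold minimum. Each of the others lost a call under at least 1 further alternative. HNRNPF, HNRNPR and PRPF38B lost the call with dominant-negative Tcf4 under 13, 13 and 12 alternatives. HNRNPU lost that with the shRNA under 11 and that with dominant-negative Tcf4 under 9. Across the 74 members the sizes of both changes had a Pearson correlation of 0.20, against 0.46 over all tested genes, which describes genes of the same 12 arrays.

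**Figure D2:**
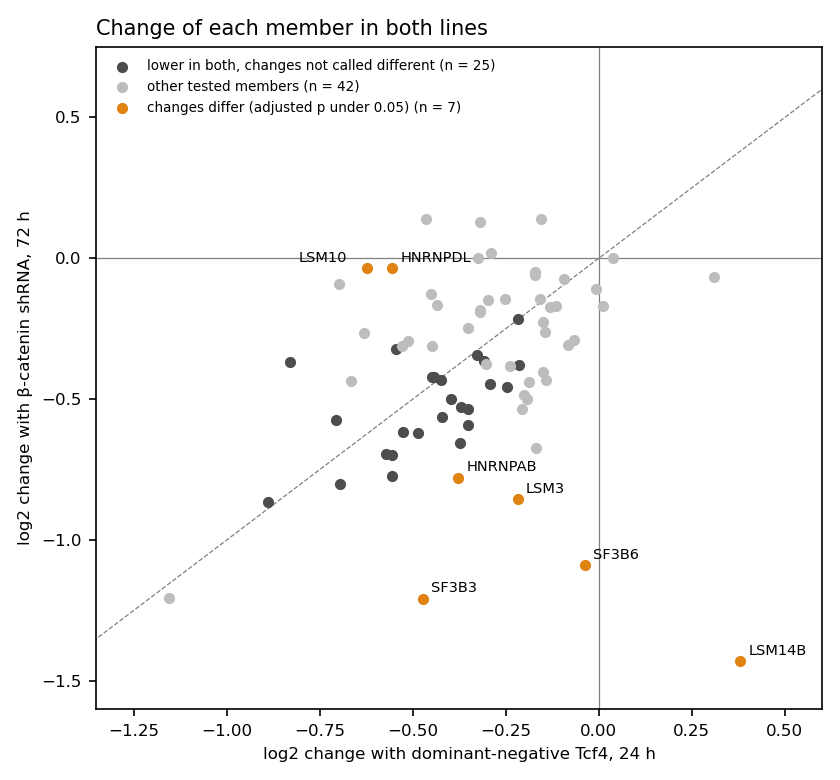
Each point is 1 of the 74 tested members, with its log2 change under dominant-negative Tcf4 on the x axis and under the β-catenin shRNA on the y axis. The dashed line marks equal changes, orange points mark the 7 members whose changes differed between the lines, and most points lie in the lower left quadrant.

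Among the Sm proteins, the ring of the U1, U2, U4 and U5 snRNPs, 5 of 7 fell with the shRNA and 4 of 7 under dominant-negative Tcf4. The shares over all tested genes were 17.4% and 20.0%. SNRPD1, a subunit of that ring, had 1405.0, 1552.7 and 1380.1 with the shRNA, against 2585.8, 2587.8 and 2249.3 without it. In the other line it had 2169.5, 2520.7 and 2168.3 with dominant-negative Tcf4, against 3096.9, 3288.4 and 3706.0 without it. Induced and uninduced signals did not overlap in either line. The log2 changes were -0.77 ± 0.09 (standard error, limma adjusted p = 5.51e-06) and -0.56 ± 0.09 (adjusted p = 0.000148). SNRPF, another ring subunit, fell with the shRNA by 0.67 ± 0.13 (adjusted p = 0.00059), where signals were 978.7, 1031.9 and 976.5 induced and 1734.3, 1592.7 and 1447.2 uninduced. With dominant-negative Tcf4 its change of -0.17 ± 0.13 did not pass (adjusted p = 0.341), and induced and uninduced signals overlapped there. The non-coding SNRPF-DT was dim, with 3.1 to 39.6 on all arrays, and passed in neither line (-0.27 and -0.63). Of the proteins particular to 1 snRNP, the U1 protein SNRPA changed by -0.53 and -0.35 and the U2 protein SNRPA1 by -0.53 and -0.37, and both fell in both lines, SNRPA1 not without its _x_at and _s_at probe sets (adjusted p = 0.517 and 0.789). These and the next pair of genes were chosen after their values were seen. The U1 protein SNRPC (-0.13 and -0.45) and the U2 protein SNRPB2 (-0.18 and -0.32) were called lower only with dominant-negative Tcf4.

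The ring of LSM2 to LSM8, which binds the end of U6 snRNA, had 6 of 7 subunits lower with the shRNA and 4 of 7 lower with dominant-negative Tcf4. The shares over all tested genes were 17.4% and 20.0%. LSM2 had 437.4, 413.0 and 522.9 with the shRNA, against 684.9, 643.1 and 705.4 without, and 502.4, 568.0 and 553.4 with dominant-negative Tcf4, against 889.1, 880.5 and 875.0 without. Its signals were separate in both lines, with log2 changes of -0.57 ± 0.10 (adjusted p = 0.000222) and -0.71 ± 0.10 (adjusted p = 3.14e-05). LSM6 fell by 0.70 ± 0.11 and 0.56 ± 0.11, and LSM7 by 0.69 ± 0.10 and 0.57 ± 0.10, again with separate signals in both lines. LSM8, the subunit that sets the nuclear ring apart from the cytoplasmic decay ring with LSM1, fell with the shRNA by 0.38 ± 0.11 (adjusted p = 0.0168), a call that was lost without induced replicate 2 or uninduced replicate 1 or 2 of that line (adjusted p 0.051 to 0.077). With dominant-negative Tcf4 its change was -0.24 and missed the threshold (adjusted p = 0.12).

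LSM3, a subunit of both the nuclear and the cytoplasmic ring, had 840.6, 1049.4 and 1076.6 with the shRNA and 1819.4, 1837.8 and 1678.8 without it. It had 1479.8, 1561.0 and 1365.6 with dominant-negative Tcf4 and 1721.5, 1755.7 and 1642.2 without it. Signals were separate in both lines, but the changes differed in size: -0.85 ± 0.09 (adjusted p = 2.81e-06) against -0.22 ± 0.09 (adjusted p = 0.0836), a difference of -0.64 ± 0.13 (adjusted p = 0.00333). LSM10 and LSM11 belong to the U7 snRNP, which processes the ends of histone mRNAs rather than introns. LSM10 had 307.6, 279.1 and 279.4 with dominant-negative Tcf4 and 433.1, 453.3 and 446.4 without it, a change of -0.62 ± 0.13 (adjusted p = 0.00157). With the shRNA its signals overlapped (367.1, 420.5 and 462.7 induced, 511.1, 447.1 and 336.1 uninduced), the change was -0.03, and the difference of both changes was 0.59 ± 0.19 (adjusted p = 0.0409). This difference was lost under 15 of 23 alternatives, among them leaving out any of 9 arrays (adjusted p 0.0574 to 0.1). LSM14B, a relative of the P-body protein LSM14A, was dim: 17.4, 28.3 and 8.1 with the shRNA, 51.4, 43.9 and 34.5 without it, 53.7, 39.8 and 48.1 with dominant-negative Tcf4 and 43.1, 30.8 and 35.1 without it. Its change of -1.43 ± 0.36 with the shRNA (adjusted p = 0.00544) did not pass after quantile normalization (adjusted p = 0.16), and neither did the difference of -1.81 ± 0.51 between the lines (adjusted p = 0.0216, against 0.27). Neither call was kept with the mean of all its probe sets. The difference was also lost without uninduced replicate 1 of the shRNA line or uninduced replicate 2 of the dominant-negative Tcf4 line (adjusted p = 0.0541 and 0.054).

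**Figure D3:**
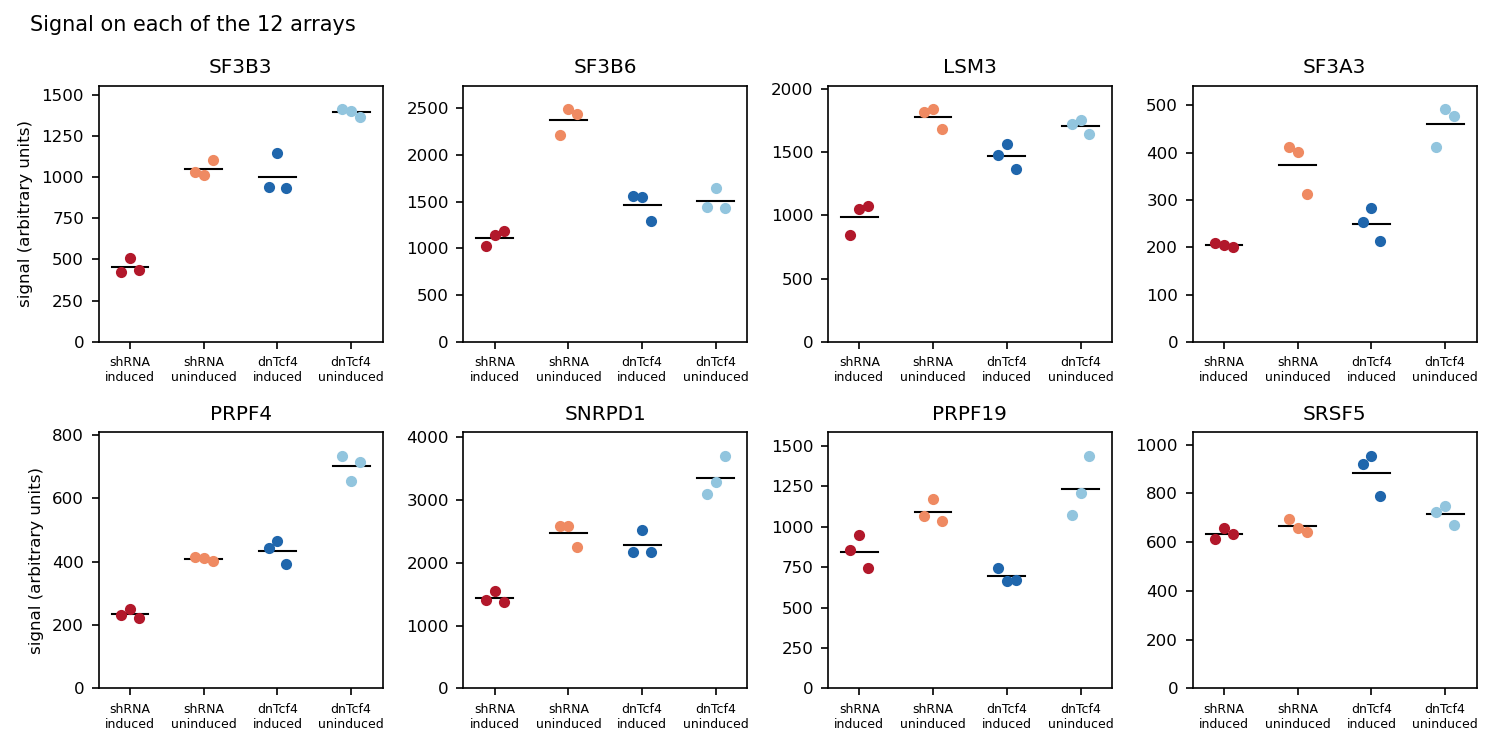
Signal in arbitrary units (y axis, linear, from 0) of 8 members on each of the 12 arrays, grouped by line and induction on the x axis, with bars at the geometric mean of 3 arrays. Induced and uninduced signals are separate in both lines for SF3B3, LSM3, SF3A3, PRPF4, SNRPD1 and PRPF19, only in the shRNA line for SF3B6 and only in the dominant-negative Tcf4 line for SRSF5.

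SF3A and SF3B are the parts of the U2 snRNP that settle it on the branch site of the intron. All 3 SF3A subunits fell with dominant-negative Tcf4 and 2 of 3 with the shRNA, and 2 of 6 SF3B subunits fell in each induction. Over all tested genes 20.0% were lower with dominant-negative Tcf4 and 17.4% with the shRNA. SF3A3 had 208.6, 204.7 and 201.5 with the shRNA and 412.4, 401.3 and 313.6 without it, and 254.0, 283.7 and 212.9 with dominant-negative Tcf4 and 413.1, 491.9 and 478.1 without it. With no overlap in either line, it fell by 0.86 ± 0.13 (adjusted p = 7.03e-05) and 0.89 ± 0.13 (adjusted p = 5.45e-05). SF3A2 had 329.0, 382.5 and 570.7 with dominant-negative Tcf4 and 808.5, 636.8 and 556.2 without it, which overlap. That change of -0.67 ± 0.19 (adjusted p = 0.0104) was lost without induced or uninduced replicate 1 (adjusted p = 0.06 and 0.063).

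SF3B3, a scaffold subunit of SF3B, had the lowest adjusted p of all members with the shRNA. It had 420.8, 506.5 and 437.6 with the shRNA and 1028.7, 1015.3 and 1101.4 without it, a change of -1.21 ± 0.10 (adjusted p = 7.59e-08). With dominant-negative Tcf4 it had 941.4, 1146.1 and 936.6, against 1411.8, 1400.0 and 1367.8 without it, a change of -0.47 ± 0.10 (adjusted p = 0.00105). The decrease was larger with the shRNA by 0.73 ± 0.14 on the log2 scale (adjusted p = 0.00139). The dimmer probe set of SF3B3 had changes of -0.83 (adjusted p = 0.00133) and -0.31 (adjusted p = 0.198), and with it in place of the brighter the difference did not pass (adjusted p = 0.147). SF3B6, the small subunit that lies at the branch point adenosine, had 1026.2, 1144.5 and 1182.7 with the shRNA and 2209.7, 2488.1 and 2433.3 without it, a change of -1.09 ± 0.09 (adjusted p = 1.62e-07). With dominant-negative Tcf4 its signals overlapped, at 1558.6, 1549.6 and 1297.2 induced and 1442.9, 1641.5 and 1429.7 uninduced, and the difference of the changes was -1.05 ± 0.13 (adjusted p = 4.93e-05). With the mean of both SF3B6 probe sets, the other of which was dim at 2.2 to 23.4, the change with the shRNA was -0.22 and the difference -0.40, and neither passed (adjusted p = 0.645 and 0.613). SF3B6 was also 1.58-fold lower in the uninduced dominant-negative Tcf4 line than in the uninduced shRNA line, so the shRNA line started higher. SF3B1, the subunit that clamps the branch site helix, is named after its values were seen and had changes of -0.11 and -0.01 that did not pass, and SF3B2 had -0.05 and -0.17.

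Grouped here were PRPF3, PRPF4, PRPF6, PRPF8 and PRPF31 of the tri-snRNP together with PRPF18, which was called in neither line. Of these 6 proteins 2 were lowered by the shRNA and 3 by dominant-negative Tcf4, against 17.4% and 20.0% of all tested genes. PRPF4, which joins U4 and U6, had 232.7, 250.5 and 223.4 with the shRNA and 414.5, 413.2 and 402.5 without it, and 443.8, 466.2 and 391.7 with dominant-negative Tcf4 and 735.1, 655.7 and 715.2 without it. The groups of each line were separate, with changes of -0.80 ± 0.10 (adjusted p = 7.78e-06) and -0.70 ± 0.10 (adjusted p = 3.43e-05). PRPF31, whose mutations cause retinal degeneration, and PRPF8, the protein at the catalytic centre, are named after their values were seen. PRPF31 fell by 0.42 and 0.44, but with the mean of its probe sets the changes were -0.15 and -0.12 and did not pass. Its call with the shRNA was also lost without induced replicate 1 or 3 or uninduced replicate 1 or 2 (adjusted p 0.0572 to 0.0922), and that with dominant-negative Tcf4 with centred arrays and without induced replicate 3 or uninduced replicate 2 (adjusted p 0.0523 to 0.0838). PRPF8 changed by -0.19 with the shRNA, which did not pass, and by -0.32 with dominant-negative Tcf4, a call that was lost with centred arrays and without induced replicate 1 or uninduced replicate 1 or 2 (adjusted p 0.0659 to 0.0726). PRPF19, the ubiquitin ligase at the core of the complex that activates the spliceosome, had 747.0, 662.5 and 671.1 with dominant-negative Tcf4 and 1070.3, 1210.1 and 1439.1 without it (-0.83 ± 0.11, adjusted p = 2.65e-05). With the shRNA it had 853.6, 947.1 and 745.2, against 1064.9, 1170.2 and 1036.9 without it (-0.37 ± 0.11, adjusted p = 0.0184), which was lost without induced replicate 3 or uninduced replicate 2 of that line (adjusted p = 0.096 and 0.081). PRPF40B, a relative of a yeast U1 protein, had changes of -1.20 ± 0.51 and -1.16 ± 0.51 at signals of 6.4 to 59.3, which did not pass (adjusted p = 0.0784 and 0.0877).

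Among the SR proteins, which bind exonic enhancers and recruit the spliceosome, SRSF1, SRSF3, SRSF4 and SRSF7 fell in both lines. SRSF1, the founding member, had 1702.4, 1873.3 and 1725.2 with the shRNA and 2274.2, 2458.0 and 2362.8 without it, and 2086.6, 2267.9 and 1787.6 with dominant-negative Tcf4 and 2710.6, 2796.5 and 2833.3 without it. Its signals did not overlap in either line (-0.42 ± 0.08 and -0.45 ± 0.08, adjusted p = 0.000869 and 0.000505). These values are those of its brightest probe set: without _x_at and _s_at probe sets the change with the shRNA was -0.094 (adjusted p = 0.664), and with the mean of all its probe sets that with dominant-negative Tcf4 was -0.29 (adjusted p = 0.27). SRSF4 fell by 0.59 ± 0.09 and 0.35 ± 0.09, but with the mean of its probe sets the changes were -0.25 and -0.13 and neither passed (adjusted p = 0.689 and 0.854). SRSF3 likewise lost both calls with that mean (adjusted p = 0.96 and 0.2), and that with the shRNA also without _x_at and _s_at probe sets. SRSF7 fell by 0.62 ± 0.14 under the shRNA and by 0.48 ± 0.14 with dominant-negative Tcf4, where its signals overlapped (1605.7, 2166.0 and 1429.5 induced, 2159.1, 2379.2 and 2652.6 uninduced) and the call was lost without replicate 3 of either group (adjusted p = 0.06 and 0.053). With the mean of its probe sets SRSF7 lost its calls in both lines. SRSF8 fell with the shRNA by 0.50 ± 0.08 (adjusted p = 0.000165) and had a change of -0.19 with dominant-negative Tcf4 (adjusted p = 0.0814). SRSF6 had a change of -0.26 ± 0.10 with the shRNA (adjusted p = 0.0493), a call at the edge of the threshold that was lost under 14 of the alternatives tried besides the 1.5-fold minimum.

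SRSF5 was the only member that rose. It had 920.6, 954.5 and 788.9 with dominant-negative Tcf4 and 725.1, 748.1 and 671.6 without it, separate groups with a change of 0.31 ± 0.09 (adjusted p = 0.0133). A second probe set of SRSF5, with 647.0, 640.3 and 539.5 induced and 476.2, 506.7 and 415.8 uninduced, had a change of 0.39 (adjusted p = 0.0386). The remaining probe set of SRSF5 went the other way, 1.16-fold lower with dominant-negative Tcf4, and was not called. With the mean of all its probe sets the change was 0.16 and did not pass. The rise also did not pass with arrays centred on their medians (adjusted p = 0.095). It was lost without induced replicate 2 or uninduced replicate 3 of the dominant-negative Tcf4 line as well (adjusted p = 0.059 and 0.064). With the shRNA SRSF5 changed by -0.07, short of the threshold, and the difference of the changes was -0.38 ± 0.13 (adjusted p = 0.0528).

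Probe sets of 1 gene can read different transcripts, and SR protein genes are known for alternative transcripts with unproductive exons. Of the 209 probe sets of members 175 were bright enough to be tested by themselves. With the shRNA 77 fell and 1 rose, against 12.9% lower and 12.2% higher of all 27280 probe sets tested. With dominant-negative Tcf4 75 fell and 2 rose, against 14.1% and 12%. Among the 33 tested probe sets of SRSF genes 19 fell and 1 rose with the shRNA, and 14 fell and 2 rose with dominant-negative Tcf4. SRSF11, an SR-related protein, was the only member with opposite calls. Its brightest probe set had 1413.6, 1299.1 and 1212.3 with the shRNA and 1639.5, 1478.7 and 2296.1 without it, a change of -0.44 ± 0.13 (adjusted p = 0.0149) that was lost without replicate 3 of either group (adjusted p = 0.061 and 0.075). A dimmer probe set had 166.0, 211.2 and 179.6 with the shRNA and 48.1, 51.5 and 46.5 without it, a 3.8-fold rise (log2 change 1.92 ± 0.24, adjusted p = 2.15e-05), and 0.60 ± 0.24 with dominant-negative Tcf4, which missed the threshold (adjusted p = 0.081). Which transcripts these probe sets read was not tested.

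SRSF10, an SR protein that can repress splicing, is named here after its values were seen. Its brightest probe set had 853.2, 921.8 and 891.4 with the shRNA and 885.2, 979.9 and 808.7 without it, a change of 0.00. The other 4 fell in the same comparison, by 0.30, 0.55, 1.08 and 1.48. The largest of these decreases was that of its dimmest probe set, with 34.5, 47.5 and 35.5 with the shRNA and 105.8, 88.2 and 136.2 without it (-1.48 ± 0.17, adjusted p = 8.6e-06). The count of members therefore holds SRSF10 as not called with the shRNA, although 4 of its 5 probe sets fell. In the fit over probe sets 7 members with the shRNA were called only by a probe set other than the brightest. With dominant-negative Tcf4 there were 5 such members. Of the 46 members with more than 1 tested probe set, 8 had all of them lower in each induction.

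**Figure D4:**
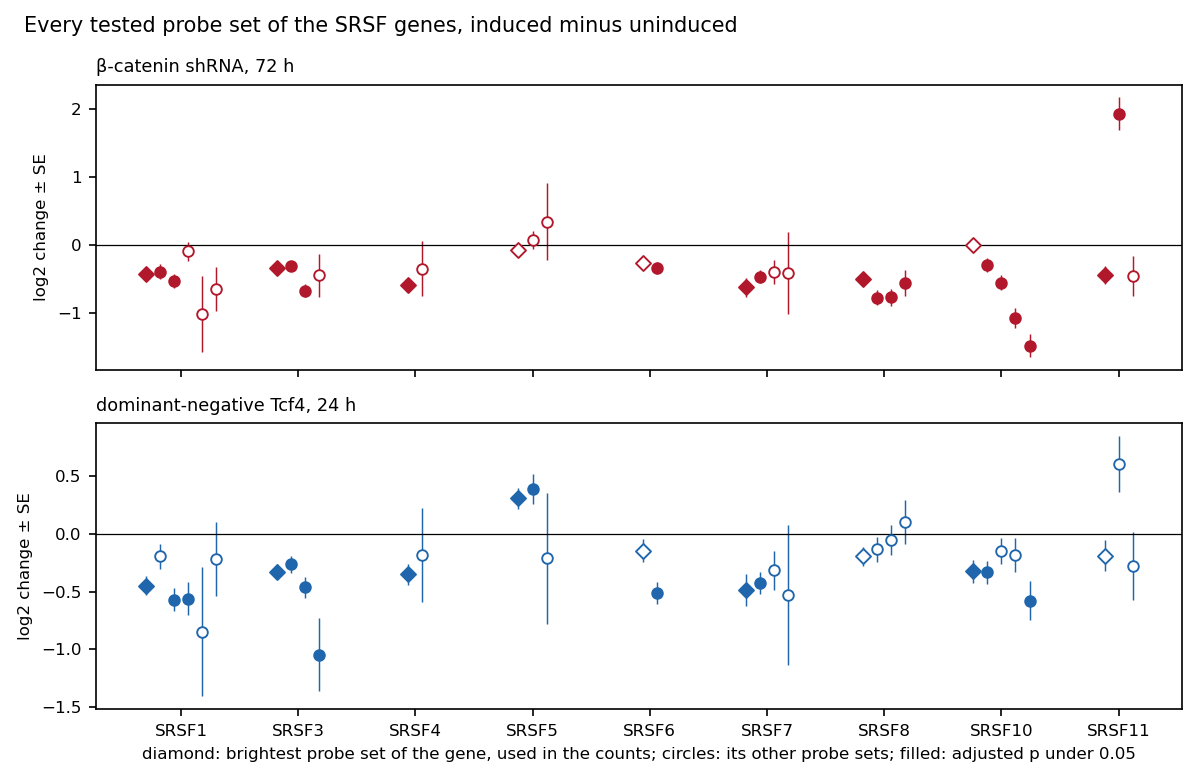
Log2 change ± 1 standard error (y axis) of each of the 33 tested probe sets of the 9 tested SRSF genes (x axis), with the β-catenin shRNA above and dominant-negative Tcf4 below, from the fit over all probe sets. Diamonds are the brightest probe set of a gene, circles its others, and filled symbols have an adjusted p under 0.05. SRSF11 has a filled diamond below 0 and a filled circle at 1.92 with the shRNA, and 4 of the 5 symbols of SRSF10 there are filled and below 0.

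Among the hnRNPs, which coat nascent transcripts and often oppose SR proteins, HNRNPAB had the largest decrease with the shRNA. It had 3019.1, 2974.5 and 3365.2 with the shRNA and 5777.7, 5316.1 and 4968.8 without it, and 4238.3, 4702.5 and 4340.3 with dominant-negative Tcf4 and 6010.8, 5676.3 and 5570.3 without it. The groups were separate in both lines, and the changes of -0.78 ± 0.07 (adjusted p = 5.78e-07) and -0.38 ± 0.07 (adjusted p = 0.000763) differed by -0.40 ± 0.11 (adjusted p = 0.0144), a difference that did not pass with centred arrays (adjusted p = 0.0691). HNRNPUL1, a relative of the chromatin-associated HNRNPU whose promoter is printed above, had 946.8, 914.6 and 892.0 with the shRNA and 1663.2, 1452.0 and 1150.9 without it (-0.62 ± 0.15, adjusted p = 0.0049). With dominant-negative Tcf4 it had 953.0, 769.9 and 1306.5, against 1374.6, 1372.3 and 1520.6 without it (-0.53 ± 0.15, adjusted p = 0.0128), and this call was lost without induced replicate 2 (adjusted p = 0.077) and without uninduced replicate 3 (adjusted p = 0.05). HNRNPLL, known for repressing exons of the leukocyte gene PTPRC, had a change of -0.29 ± 0.11 with the shRNA (adjusted p = 0.0477), lost under 15 of the alternatives besides that minimum, and of -0.07 with dominant-negative Tcf4. HNRNPK and HNRNPA1, both abundant hnRNPs named after their values were seen, passed in neither line.

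HNRNPD, an AU-rich element binding protein that regulates mRNA decay, and HNRNPDL, its close relative, lie near each other on chromosome 4 with HNRNPD-DT between them, and all 3 fell with dominant-negative Tcf4. HNRNPD had 2249.8, 2659.4 and 2044.1 induced and 3246.6, 3353.2 and 3256.4 uninduced (-0.51 ± 0.12, adjusted p = 0.00409). HNRNPDL had 416.8, 461.1 and 473.3 induced and 624.8, 698.3 and 661.3 uninduced (-0.56 ± 0.11, adjusted p = 0.00111). The non-coding HNRNPD-DT was dim, with 27.9, 39.5 and 42.7 induced and 65.1, 56.0 and 55.2 uninduced (-0.70 ± 0.26, adjusted p = 0.047), and its call was lost when any of 5 arrays of that line or 3 of the shRNA line was left out (adjusted p 0.05 to 0.19). With the shRNA none of the 3 passed (-0.29, -0.03 and -0.09), and for HNRNPDL the difference of the changes was 0.52 ± 0.16 (adjusted p = 0.0341), which was lost under 13 of 23 alternatives, among them leaving out any of 7 arrays (adjusted p 0.0646 to 0.086). With the mean of their probe sets the decreases of HNRNPD and HNRNPDL with dominant-negative Tcf4 did not pass (adjusted p = 0.147 and 0.413). HNRNPD is named after its values were seen. Both HNRNPD and HNRNPDL carry an E-box in the windows printed above, and HNRNPD-DT starts next to HNRNPD with no gene between them.

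The changes themselves differed between the lines for 7 of 74 members, 5 with the shRNA change more negative (SF3B3, SF3B6, LSM3, LSM14B and HNRNPAB) and 2 with the change under dominant-negative Tcf4 more negative (LSM10 and HNRNPDL), against 8.61% and 9.03% of all tested genes (17.6% either way). With arrays centred on their medians the split was 4 and 0. The shares among members, 6.76% and 2.70%, are no larger than those over all genes. Time after induction, construct and line differ together here and cannot be told apart.

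The uninduced lines differed for 26 of 74 members before any induction. Of these 14 were higher and 12 lower in the uninduced dominant-negative Tcf4 line than in the uninduced shRNA line, against 16.9% and 20.5% of all tested genes (37.3% either way). With arrays centred on their medians, which moved the median of all genes from -0.03 to 0.09, the split was 15 and 2. HNRNPD-DT, with 65.1, 56.0 and 55.2 in the dominant-negative Tcf4 line and 23.6, 27.0 and 24.6 in the shRNA line, was 2.34-fold higher in the dominant-negative Tcf4 line (adjusted p = 0.00144). PRPF4 was higher there by 0.77 ± 0.10 (adjusted p = 1.02e-05), SRSF11 by 0.63 ± 0.13, SRSF6 by 0.55 ± 0.10, HNRNPDL by 0.53 ± 0.11 and SNRPD1 by 0.44 ± 0.09. SF3B2, a subunit that touches the pre-mRNA near the branch site, had 800.1, 742.8 and 796.9 in the dominant-negative Tcf4 line and 1323.1, 1293.7 and 1240.6 in the shRNA line, a change of -0.72 ± 0.08 (adjusted p = 3.22e-06). SF3B6 (-0.66), HNRNPLL (-0.48), SRSF8 (-0.41), LSM8 (-0.37) and SRSF4 (-0.35) followed. Centred arrays lost the calls of HNRNPLL, SRSF8, LSM8 and SRSF4. The mean of all probe sets lost those of HNRNPLL, SRSF11, HNRNPDL and SF3B2, and turned LSM8 to 0.24 and SRSF4 to 0.33. Without _x_at and _s_at probe sets HNRNPLL and SRSF8 lost theirs and SRSF11 turned to -1.14. For SF3B3 the probe sets differed in direction, 0.41 for the brighter (adjusted p = 0.00421 in the fit over probe sets) and -0.67 for the dimmer (adjusted p = 0.00579). LSM8 lost its call without uninduced replicate 3 of the dominant-negative Tcf4 line or uninduced replicate 1 or 2 of the shRNA line (adjusted p 0.053 to 0.11).

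Splicing genes outside the symbol rule were read from 7 lists with 145 entries, of which 130 genes were tested. Together 54 fell and 7 rose with the shRNA, and 54 fell and 8 rose with dominant-negative Tcf4, with medians of -0.23 and -0.24. With the shRNA this is 41.5% lower and 5.38% higher, against 17.4% and 16.6% of all tested genes. With dominant-negative Tcf4 it is 41.5% lower and 6.15% higher, against 20.0% and 16.0% of all tested genes. Among 23 snRNP proteins with other names 13 fell and 1 rose with the shRNA and 11 fell and 1 rose with dominant-negative Tcf4. PPIH, a cyclophilin of the U4/U6 particle, averaged 308.7 with and 601.9 without the shRNA (-0.96 ± 0.11, adjusted p = 3.5e-06), and PDCD7, of the minor spliceosome, fell by 0.88 and 0.76. EFTUD2, the GTPase of the U5 snRNP, fell with dominant-negative Tcf4 by 0.58. ZMAT5, another protein of the minor spliceosome, rose with the shRNA at low signals (78.1 with and 30.4 without it, 1.36 ± 0.44, adjusted p = 0.0226), and SNRNP27 of the tri-snRNP rose with dominant-negative Tcf4 by 0.40.

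Of 15 genes for the assembly of Sm rings 7 were lowered by the shRNA and 10 by dominant-negative Tcf4, and none rose. Over all tested genes 17.4% and 20.0% were lower and 16.6% and 16.0% higher. GEMIN4, DDX20 and GEMIN5 belong to the SMN complex that loads Sm proteins onto snRNAs. GEMIN4 averaged 228.7 with and 414.4 without the shRNA (-0.86 ± 0.11) and 255.0 with and 507.0 without dominant-negative Tcf4 (-0.99 ± 0.11, adjusted p = 3.58e-06), and DDX20 fell by 0.75 and 0.74. GEMIN5, the subunit that recognises snRNAs, fell by 0.51 with the shRNA and by 1.25 ± 0.12 with dominant-negative Tcf4 (adjusted p = 9.06e-07). Of 16 genes for branch site and splice site recognition 7 and 9 fell and none rose. The branch point binding protein SF1 had 0.06 with the shRNA, which did not pass, and -0.84 ± 0.16 with dominant-negative Tcf4 (adjusted p = 0.000592). BUD13 fell by 0.92 and 0.52, the helicase DDX46 by 0.74 and 0.46, and the U2-associated CHERP by 0.52 and 0.70.

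Of 19 SR-related proteins and SR kinases 8 fell with the shRNA and none rose, and 7 fell and 1 rose with dominant-negative Tcf4. For this and the next lists, the shares over all tested genes were 17.4% lower and 16.6% higher with the shRNA. They were 20.0% and 16.0% with dominant-negative Tcf4. SRPK1, a kinase that phosphorylates SR proteins for nuclear import, averaged 384.3 with and 800.4 without the shRNA (-1.06 ± 0.09, adjusted p = 2.77e-07) and fell by 0.35 with dominant-negative Tcf4. PNN, a nuclear speckle protein, rose with dominant-negative Tcf4 by 0.42 (adjusted p = 0.0028). All 4 tested exon junction complex genes were lowered by the shRNA and 3 of 4 by dominant-negative Tcf4, with ALYREF, the mRNA export adaptor, at -1.07 ± 0.08 and -0.30 ± 0.08. Of the Prp19 and catalytic list 5 of 23 (21.7%) were lower with the shRNA, close to the share over all genes. WBP4 (-0.85) and CTNNBL1 (-0.62) were among these. None was higher with the shRNA, a smaller share than over all genes. With dominant-negative Tcf4 3 were lower (CWC27 -0.75 and PPIL1 -0.74 among them) and 2 higher (SYF2 0.36 and DHX8 0.33). The shares lower and higher with dominant-negative Tcf4 were also smaller than those over all genes. The list of 30 other regulators of alternative splicing moved both ways, with 10 (33.3%) lower and 6 (20.0%) higher with the shRNA and 11 (36.7%) lower and 4 (13.3%) higher with dominant-negative Tcf4. TIA1, an RNA-binding protein of stress granules, fell by 1.11 and 0.53 and SYNCRIP by 0.83 and 0.48, MATR3 of the nuclear matrix fell 2.84-fold with dominant-negative Tcf4, and the epithelial regulator RBM47 rose by 0.88 and 0.55. ESRP1, a regulator of epithelial exons, rose with dominant-negative Tcf4 by 0.60 and MBNL2 by 0.91, and PTBP2 rose with the shRNA by 0.88.

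**Figure D5:**
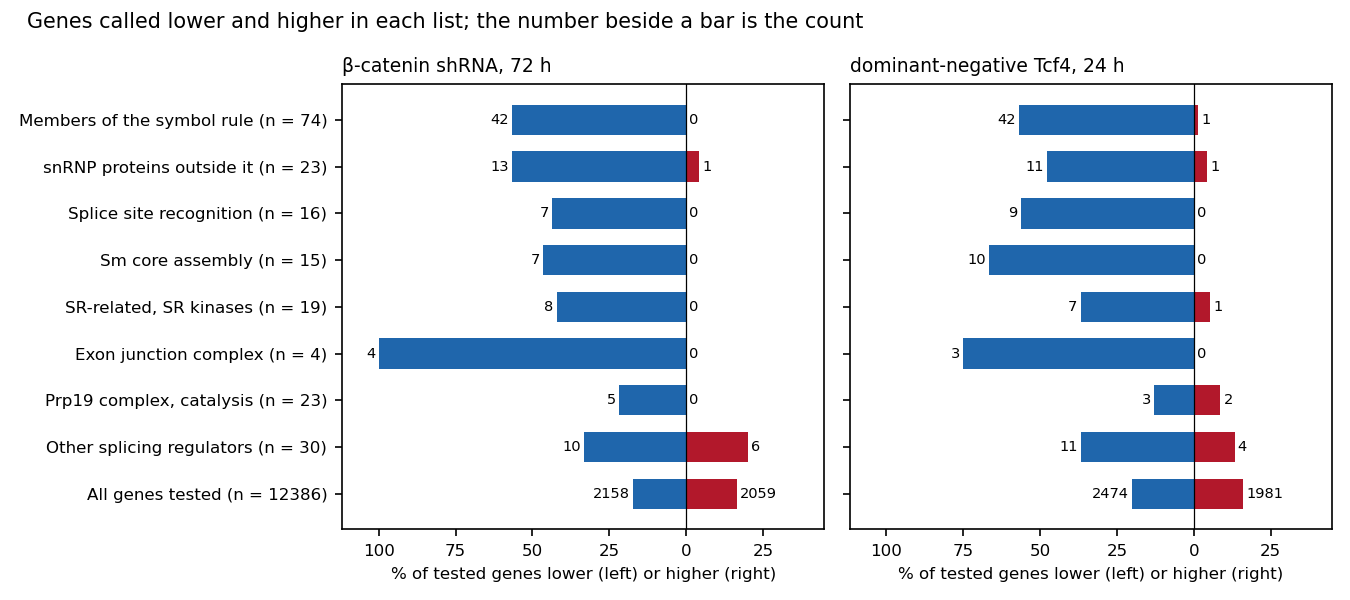
Share of tested genes called lower (bars to the left) and higher (bars to the right) in each list, in percent on the x axis, with the β-catenin shRNA on the left and dominant-negative Tcf4 on the right; the number beside a bar is the count of genes. The members and most lists lean to lower, the Prp19 list and the other regulators less so, and all 12386 genes tested are at the bottom.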

How the data were processed

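Each of 12 samples was read on 1 Affymetrix U133 Plus 2.0 array. The authors deposited 1 intensity (signal, linear, arbitrary units) per probe set and array. MAS5 and GCOS are named in the submitters' processing notes, with versions not given in the sources used here. The mean over the middle 96% of signals was 100.0 on every array, and median signals were 12.1 to 15.3. The 3 arrays per group limit the precision. No genome build is given for the files, so genes carry no coordinates. Only the promoter windows, from RefSeq on GRCh38.p14, have them.

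Of 54675 probe sets 41097 had 1 gene symbol, 1801 several and 11777 none. Signals were floored at 1 before the log2. The brightest probe set stood for each gene, and 12386 genes at or above the median log2 signal of probe sets (3.35) were tested. limma 3.58.1 in R 4.3.3 fitted 4 group means, moderated by empirical Bayes with a trend of variance on signal. Tests are two-sided, adjusted by Benjamini and Hochberg over all genes tested in a contrast, and called under 0.05. A second fit covered all probe sets (27280 tested). The steps were tested on simulated data. Same-numbered induced and uninduced arrays of a line had deviations from their group means that correlated at -0.08 to 0.04, so numbers were not used to pair samples.

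Named genes were taken by a rule: the 10 largest decreases and 8 largest increases per induction among called members without overlap, called opposite changes, the 10 largest called differences, 6 per direction between the uninduced lines, the 2 largest changes per family and induction, and members with opposite probe sets. The rule also took the 2 largest called changes per pathway list and direction, CTNNB1, TCF7L2 and MYC. The members, the lists and the rule were chosen with earlier results of these data known, and the shared decreases are listed in full. SNRPA, SNRPA1, SNRPB2, SNRPC, SF3B1, PRPF8, PRPF31, SRSF10, HNRNPA1, HNRNPD and HNRNPK lie outside the rule and were chosen after their values were seen. Alternatives were quantile normalization, median centring, an offset of 3.5, no filter and a stricter one (6.29), other choices of probe set, no trend, array weights, only the arrays compared, a replicate block, a 1.5-fold minimum change and leaving out each array.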

Additional observations from a re-analysis of the deposited data

Results flagged for a closer look

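The change with the shRNA and the change with dominant-negative Tcf4 differed for 7 members by a test of the difference itself (limma, adjusted p under 0.05, 3 arrays per group). The difference, shRNA change minus dominant-negative Tcf4 change on the log2 scale, was -1.81 for LSM14B (-1.43 against 0.38), -1.05 for SF3B6 (-1.09 against -0.04), -0.73 for SF3B3 (-1.21 against -0.47), -0.64 for LSM3 (-0.85 against -0.22) and -0.40 for HNRNPAB (-0.78 against -0.38). It was 0.59 for LSM10 (-0.03 against -0.62) and 0.52 for HNRNPDL (-0.03 against -0.56). The calls for LSM10 and HNRNPDL were lost under 15 and 13 of 23 alternatives, and those for SF3B6 and LSM14B with the mean of all probe sets. Of these calls that for LSM3 was kept under every alternative except the 1.5-fold minimum change. SF3B6 was also lower in the uninduced dominant-negative Tcf4 line by 0.66, and SF3B3 and HNRNPDL were higher there by 0.41 and 0.53.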

How the results depend on the processing

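Leaving out 1 array at a time, the count of lower members (42 in each induction) ranged over 35 to 45 for the shRNA and 32 to 44 for dominant-negative Tcf4, and the counts of higher members over 0 to 0 and 0 to 1. Differences of change ranged over 4 to 7 more negative and 0 to 4 more positive, and uninduced lines over 8 to 13 lower and 10 to 15 higher. With a minimum change of 1.5-fold 2 members fell under the shRNA and 0 under dominant-negative Tcf4, 0 rose there, 0 and 0 differences remained, and 0 lower and 0 higher members remained between the uninduced lines. Without _x_at and _s_at probe sets 57 members were tested. Of these 28 fell and 1 rose with the shRNA, and 26 fell and 0 rose with dominant-negative Tcf4. The mean of all probe sets of a gene gave 31 lower members of 74 in each induction. In that setting 1 rose under the shRNA and 0 under dominant-negative Tcf4, 0 differences were positive, and 5 members were lower between the uninduced lines. With centring on array medians 0 rose with dominant-negative Tcf4, 0 differences were positive and 2 members were lower between the uninduced lines. Positive differences numbered 1 with no filter, 0 with no variance trend and 1 with array weights, which also gave 8 negative differences. Replicate numbers did not pair the samples. With the replicate number as a block 40 members fell with the shRNA, 35 fell and 1 rose with dominant-negative Tcf4, and differences numbered 5 negative and 0 positive. The block could not be fitted between the uninduced lines, which do not share it.

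Directions turned in these cases. With the mean of all probe sets, changes with the shRNA became 0.28 for HNRNPDL, 0.26 for LSM8, 0.10 for PRPF38B, 0.49 for SF3B2, 0.67 for SRSF11, 0.016 for SRSF3 and 0.12 for SRSF5. With dominant-negative Tcf4 they became 0.078 for HNRNPLL, 0.18 for SF3B6 and 0.079 for SNRPB2, and between the uninduced lines 0.24 for LSM4, 0.24 for LSM8, -0.13 for SF3B3 and 0.33 for SRSF4. Without _x_at and _s_at probe sets they became 0.28 for HNRNPDL and 1.92 for SRSF11 with the shRNA, 0.059 for SNRPE and 0.60 for SRSF11 with dominant-negative Tcf4, and 0.22 for HNRNPR, -0.67 for SF3B3 and -1.14 for SRSF11 between the uninduced lines. Leaving out 1 array at a time, the change with the shRNA ranged over -0.29 to 0.099 for HNRNPD-DT (above 0 without induced replicate 3), -0.14 to 0.078 for HNRNPDL (above 0 without induced or uninduced replicate 2), -0.20 to 0.098 for LSM10 (above 0 without induced replicate 1 or uninduced replicate 1 or 2) and -1.05 to 0.79 for SNRPF-DT (above 0 without induced replicate 2). With dominant-negative Tcf4 it ranged over -0.083 to 0.050 for SF3B6 (above 0 without induced replicate 3 or uninduced replicate 2) and -0.28 to 0.0042 for SNRPF (above 0 without induced replicate 1). The cause was not tested.

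Of the calls, 21 of 42 with the shRNA, 14 of 43 with dominant-negative Tcf4, 1 of 7 differences and 6 of 26 between the uninduced lines were kept under every alternative except the 1.5-fold minimum. Centring moved the median of all genes between the uninduced lines from -0.03 to 0.09, and in the other comparisons by less. Dim members such as LSM14B, PRPF40B, HNRNPD-DT and SNRPF-DT, at signals under 70, had the largest standard errors.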
